A study of Arabidopsis thaliana with 6 samples.

Results

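Pipecolate-derived signalling and the salicylic acid receptors were examined in 12-day-old Arabidopsis thaliana seedlings that grew on either ammonium nitrate or glutamate as the nitrogen source. The genes, and the lists set beside them, were chosen with earlier results of these data known. The genes were chosen by identifier and comprised 10 of the 33602 genes in the deposited table. They were the 4 genes of N-hydroxypipecolate metabolism (ALD1, SARD4, FMO1 and UGT76B1), the receptor genes NPR1, NPR3 and NPR4, and the NIMIN1, NIMIN2 and NIMIN3 genes, whose proteins bind NPR1. All plants were of the Columbia (Col) ecotype, and RNA was taken from the whole seedling. Both groups grew on half-strength Murashige and Skoog salts lacking nitrogen with 0.5% sucrose, to which either 5 mM NH4NO3 or 5 mM Glu was added, and each group had 3 libraries. Ammonium nitrate carries more nitrogen per molecule than glutamate, so the source and the amount of nitrogen cannot be told apart. Separate cultures are not stated for the libraries, so that p-values measure only the spread between them, which may be technical.

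N-hydroxypipecolate is a mobile signal of systemic acquired resistance, the state in which an infected plant becomes more resistant in its uninfected leaves. It is made from lysine in 3 enzyme steps by ALD1, SARD4 and FMO1, and UGT76B1 attaches a sugar to it. It acts together with salicylic acid, which is bound by the NPR proteins: NPR1 is a coactivator of defence genes, whereas NPR3 and NPR4 are corepressors and adaptors of a ubiquitin ligase. NIMIN proteins are small nuclear proteins that bind NPR1 and modulate its activity.

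On glutamate, 8 of the 10 genes were higher by the test across all genes, 1 did not pass and 1, ALD1, was too low to be tested. Levels are RPKM values, which the authors had corrected for the length of each gene and the size of each library, and are given as mean ± SD over 3 libraries unless each library is listed. The 20032 genes that averaged 1 RPKM or more were tested with limma on log2(RPKM + 1) and Benjamini-Hochberg adjustment over all of them. Of all tested genes, 71.8% changed at an adjusted p under 0.05, with 35.0% higher and 36.8% lower on glutamate, so that a rise as such was common. The same shares are the background for the counts of each list below, and a count near them does not set a list apart. The groups of libraries did not overlap for the 8 genes, which was so in the higher direction for 36.9% of all tested genes. Among the 9 tested genes, 7 had a log2 fold change of at least 1 on the log2(RPKM + 1) scale, against 9.52% of all tested genes. The median log2 fold change over the 9 genes was 1.39, and over all tested genes it was -0.02. Because the genes were chosen with earlier results known, these comparisons describe the set and do not test it. NIMIN1 reached the level filter only through its glutamate libraries, so its passing of the filter and its rise are not independent. All 8 remained higher under every alternative fit in which they were tested.

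**Figure D1:**
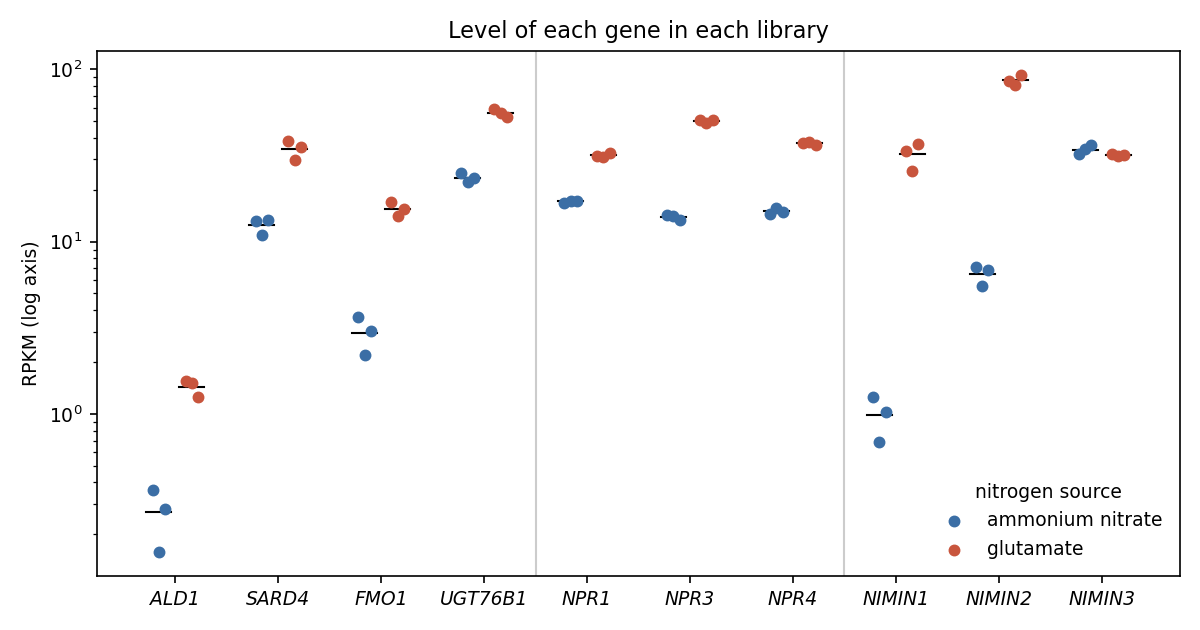
Level of each of the 10 genes in each of the 6 libraries in RPKM on a log axis; points are libraries and black lines are group means. The 2 groups are apart for all genes but NIMIN3, whose values lie between 31.3 and 36.3 RPKM in both groups.

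The 4 genes of N-hydroxypipecolate metabolism had higher values in every glutamate library than in any ammonium nitrate library. Their promoters were read from the TAIR10.1 RefSeq reference as the 300 bases before the annotated gene start, and those of ALD1 and FMO1 are shown because all 4 windows hold GAAATT, a short core reported for the defence regulators CBP60g and SARD1. Capitals mark matches, on either strand, to GAAATT, to TTGAC (the W-box core bound by WRKY factors) or to TGACG (the core of the element bound by TGA factors). TTGAC and TGACG overlap where TTGACG occurs. Each sequence is given 5′ to 3′ on the strand of its gene. The deposited table holds no coordinates, and its gene models can differ from this reference.
ALD1, chr2:5768117-5768416 of TAIR10.1, plus strand: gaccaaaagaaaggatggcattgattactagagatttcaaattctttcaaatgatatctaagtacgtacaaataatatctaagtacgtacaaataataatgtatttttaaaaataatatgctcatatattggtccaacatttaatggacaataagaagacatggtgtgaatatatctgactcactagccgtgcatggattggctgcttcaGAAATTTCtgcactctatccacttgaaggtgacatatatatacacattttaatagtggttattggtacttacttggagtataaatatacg
FMO1, chr1:6653196-6653495 of TAIR10.1, minus strand: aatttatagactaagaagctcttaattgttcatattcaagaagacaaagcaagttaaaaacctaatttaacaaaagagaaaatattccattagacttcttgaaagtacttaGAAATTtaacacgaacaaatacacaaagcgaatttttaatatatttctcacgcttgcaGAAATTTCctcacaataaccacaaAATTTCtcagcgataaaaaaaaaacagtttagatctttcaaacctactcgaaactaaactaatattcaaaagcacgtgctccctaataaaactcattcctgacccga
GAAATT was present in the windows of ALD1, SARD4, FMO1, UGT76B1, NIMIN1 and NIMIN2, or 6 of 10, and in 37.2% of 27437 windows of protein-coding genes. FMO1 held 4 matches, where 0.401% of windows held 4 or more. In ALD1 both matches, and in FMO1 a pair of them, came from GAAATTTC, which reads as a match on both strands. The SARD4 window lies in a neighbouring gene and is not printed. A match is a description of the letters, and binding was not measured.

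ALD1 (AT2G13810), the aminotransferase that starts the pathway from lysine, had the lowest level of the 10 genes. It was at 0.363, 0.158 and 0.282 RPKM in ammonium nitrate replicates 1, 2 and 3 and at 1.54, 1.52 and 1.25 RPKM in the glutamate replicates, resting on 59 and 392 reads in all. The groups did not overlap, and the ratio of means was 5.37-fold. Its mean over the 6 libraries, 0.852 RPKM, was under the filter, so it has no call in the main test. With no filter on level, where 29.9% of 26244 genes were higher, its log2 fold change was 0.94 (adjusted p = 8.45e-05), a value that the added 1 RPKM makes small. With 0.1 RPKM added in its place the log2 fold change was 2.10 (adjusted p = 1.99e-04).

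SARD4 (AT5G52810), the reductase that completes pipecolate, was at 13.3, 10.9 and 13.3 RPKM on ammonium nitrate and at 38.4, 29.8 and 35.3 RPKM on glutamate. Replicate 2 was the lowest library of each group, and the groups were well apart. SARD4 rose 2.76-fold (log2 fold change 1.39 ± 0.11 SE; limma adjusted p = 8.17e-06). The annotation places 1 other gene on the same strand across part of it, AT5G52800, which was at 0.419 ± 0.0781 and 0.560 ± 0.0471 RPKM (SD, n = 3).

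FMO1 (AT1G19250), the monooxygenase that turns pipecolate into N-hydroxypipecolate, was at 3.67, 2.18 and 3.02 RPKM on ammonium nitrate. On glutamate it was at 17.0, 14.1 and 15.5 RPKM, so that its lowest glutamate library was above its highest ammonium nitrate library. FMO1 rose 5.26-fold (log2 fold change 2.08 ± 0.14 SE; limma adjusted p = 3.81e-06), the largest of the tested pathway genes.

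UGT76B1 (AT3G11340), whose glucosyltransferase also acts on salicylic acid, was at 24.9, 22.3 and 23.3 RPKM on ammonium nitrate and at 58.8, 56.0 and 52.9 RPKM on glutamate. It had the highest level of the 4 in both groups and the smallest ratio of means, 2.38-fold (log2 fold change 1.22 ± 0.06 SE; limma adjusted p = 8.75e-07).

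The balance between these genes was compared as ratios of RPKM within each library. Plain ratios cancel the scaling between libraries, whereas the tested log2 ratios, with 1 RPKM added, do not fully cancel it. In all, 7 ratios were tested with two-sided exact permutation tests on log2 ratios of RPKM + 1; with 3 libraries against 3, the smallest possible p is 0.1, which each ratio had, also after adjustment over the 7. UGT76B1 had 6.78, 10.2 and 7.70 times the level of FMO1 in the ammonium nitrate libraries and 3.45, 3.97 and 3.40 times in the glutamate libraries. The groups did not overlap, and the log2 ratio of RPKM + 1 fell by 0.86. It fell by 1.14 with 0.1 RPKM added and by 0.28 with 5 RPKM added. FMO1 had 11.6 ± 1.97 times the level of ALD1 in the ammonium nitrate libraries and 10.9 ± 1.56 times in the glutamate libraries (SD, n = 3), and these ratios overlapped. The log2 ratio of FMO1 + 1 to ALD1 + 1 RPKM rose by 1.13, and by 0.28 with 0.1 RPKM added (exact permutation p = 0.2), a difference that comes from the added value. ALD1 was at 0.00646 ± 0.00254 times the level of its close relative AGD2, an aminotransferase of lysine synthesis, on ammonium nitrate and at 0.0477 ± 0.00564 times on glutamate. The groups did not overlap, and the log2 ratio was higher by 1.39 with 1 RPKM added to both genes, by 2.56 with 0.1 RPKM added and by 0.69 with 5 RPKM added.

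Genes of lysine metabolism, the source of the pathway's carbon skeleton, did not rise with it. Of the 4 tested, 3 fell and 1 missed the threshold (median log2 fold change -0.51). DHDPS1 and DHDPS2, which start the branch to lysine, fell from 18.5 ± 0.395 to 11.3 ± 0.456 RPKM and from 39.5 ± 1.30 to 26.4 ± 0.486 RPKM (adjusted p = 9.21e-06 and 1.18e-05). AGD2 fell from 41.5 ± 0.509 to 30.2 ± 2.14 RPKM (adjusted p = 1.70e-04). LKR/SDH, the main enzyme of lysine breakdown, was at 35.1 ± 6.04 and 32.7 ± 4.38 RPKM (adjusted p = 0.53).

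Of 9 tested regulators of ALD1 and FMO1, 6 rose and 3 missed the threshold (median log2 fold change 0.64). SARD1, a transcription factor of salicylic acid and pipecolate synthesis genes, rose 16.9-fold and its relative CBP60G rose 3.70-fold, from 14.8 ± 1.89 to 54.9 ± 4.44 RPKM. WRKY33 rose from 26.5 ± 2.74 to 83.3 ± 6.24 RPKM and the kinase gene MPK3 from 58.3 ± 3.08 to 91.2 ± 5.82 RPKM. CBP60A and CAMTA3, named after their values were seen, also rose, 1.59-fold and 1.40-fold. The list was not split into activators and repressors, so its count of rises gives no direction for the pathway. Those that did not pass, named after their values were seen, were MPK6, CAMTA1 and CAMTA2. With quantile normalization CAMTA1 was called lower.

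**Figure D2:**
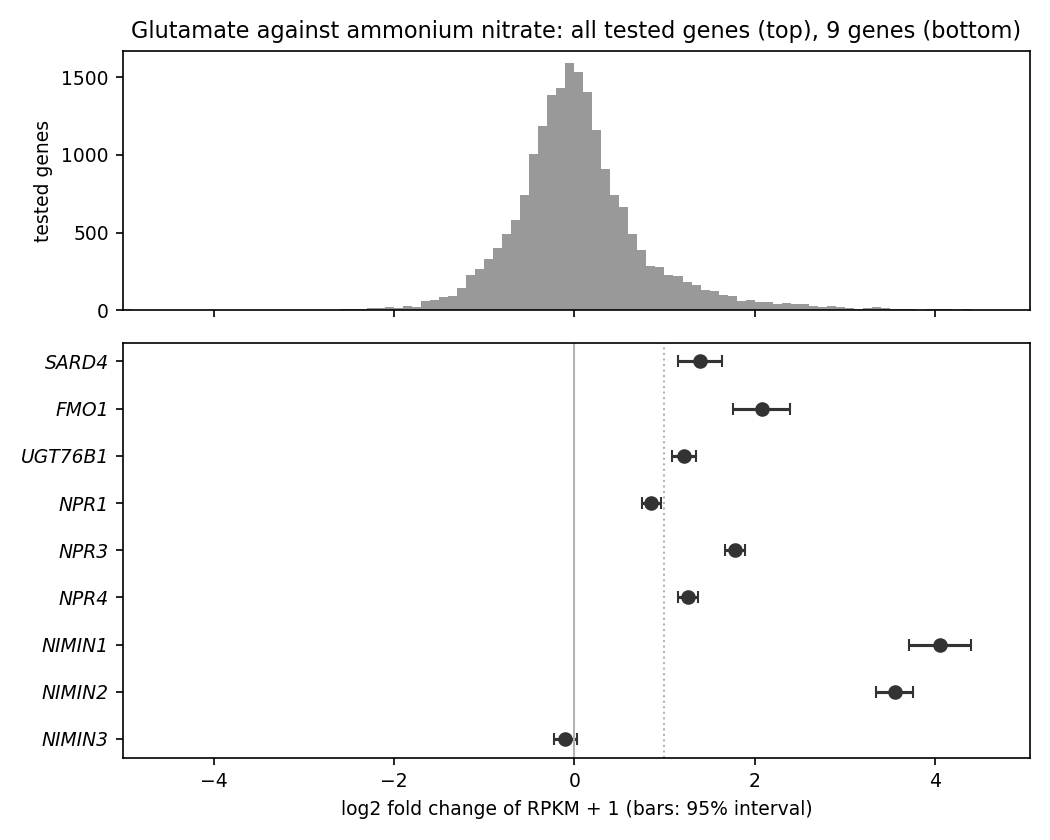
Top, number of tested genes by log2 fold change of RPKM + 1 between glutamate and ammonium nitrate, in bins of 0.1. The lowest bin starts at -5.0 and the highest at 4.9. Genes with rises beyond the highest bin, such as PR1 (7.57), are not drawn, and any falls beyond the lowest bin are counted in it. Bottom, log2 fold change of the 9 tested genes with 95% intervals from limma, with the dotted line at 1; NIMIN1 and NIMIN2 lie farthest right, and the interval of NIMIN3 holds 0.

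The 3 NPR receptor genes rose by unequal amounts, and the order of their RPKM values turned. NPR1 (AT1G64280), the coactivator, was at 16.8, 17.3 and 17.2 RPKM on ammonium nitrate and at 31.6, 30.9 and 32.8 RPKM on glutamate. The libraries of each group were close to each other. NPR1 rose 1.86-fold (log2 fold change 0.85 ± 0.05 SE; limma adjusted p = 1.51e-06). Of the 8 risen genes it alone had a log2 fold change under 1. The annotation places 2 genes on the opposite strand across part of NPR1, and the sources used here do not give whether reads were counted by strand. Of these, AT1G64270 had similar means, 9.96 ± 0.942 and 10.6 ± 0.231 RPKM (adjusted p = 0.34).

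NPR3 (AT5G45110) was at 14.3, 14.2 and 13.3 RPKM on ammonium nitrate, below NPR1 in each library. On glutamate it was at 50.9, 49.1 and 51.2 RPKM, above NPR1 in each library, and the groups were far apart. NPR3 rose 3.62-fold (log2 fold change 1.78 ± 0.05 SE; limma adjusted p = 5.51e-08). The ratio of NPR3 to NPR1 went from 0.813 ± 0.0366 to 1.59 ± 0.0271 (SD, n = 3; log2 ratio of RPKM + 1 higher by 0.93).

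NPR4 (AT4G19660) was at 14.4, 15.6 and 14.9 RPKM on ammonium nitrate and at 37.5, 37.6 and 36.6 RPKM on glutamate. It rose 2.48-fold (log2 fold change 1.26 ± 0.05 SE; limma adjusted p = 2.92e-07). Its ratio to NPR1 went from 0.875 ± 0.0232 to 1.17 ± 0.0539 (SD, n = 3), again without overlap, with a log2 ratio of RPKM + 1 higher by 0.40. The authors' lengths were 1725 bases for NPR4 and 2522 for NPR1, where exons of the reference cover 2374 and 2614. Whether NPR4 lies above NPR1 on glutamate depends on the lengths used, whereas the change in their plain ratio between groups does not. The promoter window of NPR4 is shown because it holds TGACG on both strands, 39 and 24 bases before the gene start.
NPR4, chr4:10698812-10699111 of TAIR10.1, minus strand: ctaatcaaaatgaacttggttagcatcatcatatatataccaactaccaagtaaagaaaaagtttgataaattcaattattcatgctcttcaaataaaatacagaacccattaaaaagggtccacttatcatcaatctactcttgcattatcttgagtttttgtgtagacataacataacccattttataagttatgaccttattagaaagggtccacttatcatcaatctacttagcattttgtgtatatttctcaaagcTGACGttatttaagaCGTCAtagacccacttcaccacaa
TGACG was present in the windows of NPR3, NPR4 and NIMIN2, or 3 of 10, and in 21.3% of all windows. As a share of all windows, 3.99% held 2 or more matches. The window of NPR1 held none of the 3 motifs.

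**Figure D3:**
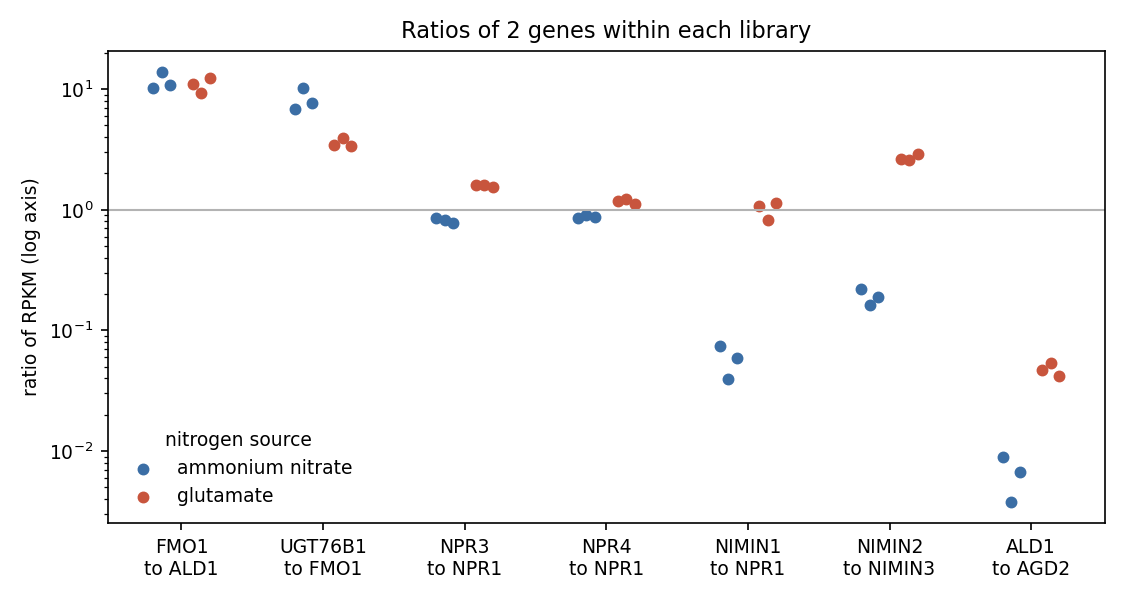
Ratio of the RPKM values of 2 genes in each library on a log axis for the 7 pairs compared; points are libraries and the line marks equal levels. With the authors' gene lengths, NPR3 and NPR4 lie below NPR1 in the ammonium nitrate libraries and above it in the glutamate libraries. The FMO1 to ALD1 ratios of both groups overlap.

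Genes that act on or with the NPR proteins went both ways. Of the 7 TGA factors, the DNA-binding partners of NPR proteins, 5 rose and 2 fell (median log2 fold change 0.30). TGA3 rose most, from 21.0 ± 2.07 to 64.2 ± 2.11 RPKM (adjusted p = 5.89e-07), TGA7 rose 1.84-fold and TGA5 1.58-fold. TGA1 fell from 63.3 ± 4.25 to 44.9 ± 1.09 RPKM (adjusted p = 1.10e-04), and so did its closest relative TGA4, named after its values were seen, from 23.3 to 18.5 RPKM. Among 6 genes listed as acting on NPR1 protein or on responses that involve NPR1, 1 rose, 1 fell and 4 did not pass. TRX5, a thioredoxin that reduces NPR1, rose from 110 ± 19.1 to 353 ± 14.3 RPKM (adjusted p = 5.25e-06), and the kinase gene SNRK2.8 fell from a mean of 11.1 to 8.28 ± 0.862 RPKM (adjusted p = 0.012). TRX3 was at 1121 ± 45.6 and 1040 ± 57.03 RPKM (adjusted p = 0.20), and the ubiquitin ligase scaffold CUL3B at 7.71 ± 0.379 and 8.61 ± 0.0761 RPKM (adjusted p = 0.056), called higher with equal totals per library. BOP2, a more distant NPR relative with a role in leaf shape, fell from 9.33 ± 0.351 to 4.11 ± 0.726 RPKM (adjusted p = 3.61e-05).

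The NIMIN genes held both the largest rises and the single gene that did not pass. The promoter windows of NIMIN2 and NIMIN1 are shown because they differ in motif content. A part of these motifs in the levels of the genes was not tested.
NIMIN2, chr3:9471040-9471339 of TAIR10.1, minus strand: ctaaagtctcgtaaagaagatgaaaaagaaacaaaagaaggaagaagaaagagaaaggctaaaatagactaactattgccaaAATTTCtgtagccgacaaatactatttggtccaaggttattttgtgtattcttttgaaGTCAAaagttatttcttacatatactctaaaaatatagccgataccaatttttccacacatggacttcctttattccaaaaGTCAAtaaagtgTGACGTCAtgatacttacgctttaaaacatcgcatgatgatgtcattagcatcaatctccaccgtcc
NIMIN1, chr1:498540-498839 of TAIR10.1, minus strand: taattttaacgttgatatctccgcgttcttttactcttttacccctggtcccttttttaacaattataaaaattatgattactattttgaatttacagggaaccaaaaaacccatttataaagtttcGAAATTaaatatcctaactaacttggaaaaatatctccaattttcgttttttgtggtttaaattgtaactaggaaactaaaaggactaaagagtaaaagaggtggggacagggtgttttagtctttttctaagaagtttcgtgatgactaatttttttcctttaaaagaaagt
The NIMIN2 window held all 3 motifs, with TGACG on both strands as 1 palindrome, TGACGTCA, starting 67 bases before the gene start. It also held 2 TTGAC matches, found in at least that number in 17.9% of windows, and TTGAC was present at least once in 3 of the 10 windows and in 50.4% of all windows. NIMIN1 held GAAATT alone, and the window of NIMIN3, which lies across 2 neighbouring genes, held none.

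NIMIN1 (AT1G02450) was at 1.25, 0.683 and 1.02 RPKM on ammonium nitrate, on 77 reads in all. On glutamate it was at 33.7, 25.7 and 37.1 RPKM, on 3162 reads, and every glutamate library was far above every ammonium nitrate library. The ratio of means was 32.6-fold (log2 fold change 4.05 ± 0.15 SE; limma adjusted p = 2.54e-07), which ranked 59 among the tested genes from the largest rise down. The log2 fold change was 2.62 with 5 RPKM added and 4.91 with 0.1 RPKM added.

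NIMIN2 (AT3G25882) was at 7.11, 5.55 and 6.87 RPKM on ammonium nitrate and at 85.4, 81.7 and 93.3 RPKM on glutamate. Both groups were tight beside the distance between them. It rose 13.3-fold (log2 fold change 3.55 ± 0.09 SE; limma adjusted p = 4.57e-08), rank 93 among the tested genes.

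NIMIN3 (AT1G09415) was at 32.2, 34.3 and 36.3 RPKM on ammonium nitrate and at 32.4, 31.3 and 32.0 RPKM on glutamate, and the groups overlapped. Its log2 fold change was -0.10, with a 95% interval of -0.22 to 0.03 (adjusted p = 0.13). The call turned with the processing: it was lower with quantile normalization (-0.14, adjusted p = 0.041) and without ammonium nitrate replicate 1 (-0.14, adjusted p = 0.045), and the sign turned with equal totals per library (0.0099, adjusted p = 0.88).

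NIMIN2 lay below NIMIN3 in every ammonium nitrate library and above it in every glutamate library. It was at 0.191 ± 0.0294 times the level of NIMIN3 in the ammonium nitrate libraries and at 2.72 ± 0.172 times in the glutamate libraries (SD, n = 3), a log2 ratio of RPKM + 1 higher by 3.65. NIMIN1 was at 0.0577 ± 0.0176 times the level of NPR1 on ammonium nitrate and at 1.01 ± 0.157 times on glutamate, above NPR1 in some glutamate libraries and below it in another. The log2 ratio of NIMIN1 to NPR1 was higher by 3.20 with 1 RPKM added to both genes, by 4.02 with 0.1 RPKM added and by 1.89 with 5 RPKM added. The libraries of the groups did not overlap in either ratio.

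By mean RPKM, a level per length, the order on ammonium nitrate was NIMIN3, UGT76B1, NPR1, NPR4, NPR3, SARD4, NIMIN2, FMO1, NIMIN1 and ALD1. The ranges of neighbours did not overlap there, although NPR3 and SARD4 met at 13.3 RPKM. On glutamate the order was NIMIN2, UGT76B1, NPR3, NPR4, SARD4, NIMIN1, NIMIN3, NPR1, FMO1 and ALD1. There NPR4 and SARD4 overlapped in range, as did SARD4 and NIMIN1, and NIMIN1, NIMIN3 and NPR1, so their order is not resolved. Both orders rest on the authors' gene lengths.

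Several of the genes had their lowest value in the same library of a group. Ammonium nitrate replicate 2 was the lowest of its group for 6 of the 10 genes (ALD1, SARD4, FMO1, UGT76B1, NIMIN1 and NIMIN2), where it was the lowest for 38.5% of all tested genes. Glutamate replicate 2 was the lowest of its group for 7 of the 10 genes (SARD4, FMO1, NPR1, NPR3, NIMIN1, NIMIN2 and NIMIN3) and for 35.4% of all tested genes. This is a description of single libraries, chosen after the values were seen.

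Genes of salicylic acid synthesis and response were higher together with the receptors. All 8 tested genes of salicylic acid synthesis and of the EDS1 node, the lipase-like proteins upstream of it, rose (median log2 fold change 1.45). PBS3, which joins glutamate to isochorismate, rose from 3.34 ± 0.489 to 42.3 ± 1.45 RPKM, PAD4 rose 5.06-fold, the exporter EDS5 3.71-fold and ICS1 4.38-fold, from 3.02 ± 0.41 to 13.2 ± 0.124 RPKM. All 9 tested response targets rose (median log2 fold change 3.71), and all 9 by at least 1 on the log2 scale. Of these, PR2, WRKY38 and WRKY62 averaged under 1 RPKM on ammonium nitrate and passed the filter on level only through the glutamate libraries, so their count and size of rise are not independent of it. PR5 rose from 2.84 ± 0.14 to 38.1 ± 0.623 RPKM and WRKY54 from 2.34 ± 0.32 to 52.1 ± 2.90 RPKM. WRKY38 was at 0.249, 0.0519 and 0.00989 RPKM in the ammonium nitrate libraries, the last of them without a read, and at 32.5 ± 3.35 RPKM on glutamate, and PR2 was at 0.838 ± 0.297 and 114 ± 10.6 RPKM. Of 4 tested genes of salicylic acid turnover, 3 rose and 1 did not pass. The hydroxylase DMR6 rose 7.61-fold (adjusted p = 8.83e-08) and MES1 1.82-fold, whereas the glucosyltransferase UGT74F2 rose 1.16-fold (adjusted p = 0.012) and UGT74F1 was at 2.20 ± 0.0696 and 2.58 ± 0.147 RPKM (adjusted p = 0.093, called higher with equal totals per library).

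Neither the tested relatives of UGT76B1 nor the tested genes linked to other systemic signals rose as groups. Of 4 tested UGT76 genes, UGT76D1 rose from 3.55 ± 0.297 to 10.6 ± 1.54 RPKM (adjusted p = 8.04e-06). UGT76E11 fell from 3.66 ± 0.509 to 2.47 ± 0.0815 RPKM (adjusted p = 0.0039). The cytokinin glucosyltransferases UGT76C2 and UGT76C1 fell 1.21-fold and 1.14-fold, calls that were lost with equal totals per library. UGT76E12, UGT76E1 and UGT76E2 were too low to be tested. Their means were 6.94-fold, 4.89-fold and 1.39-fold higher on glutamate, with overlap of the groups for UGT76E2. Of 4 tested genes linked to other systemic signals, 3 fell and 1 did not pass. DIR1, a lipid transfer protein of systemic resistance, fell from 61.4 ± 4.26 to 11.5 ± 0.80 RPKM, or 5.35-fold (adjusted p = 8.84e-08). SFD1 fell 2.14-fold and EARLI1 1.52-fold. AZI1 was at 207 ± 19.3 and 225 ± 11.8 RPKM (adjusted p = 0.17), and it was called higher with equal totals per library and with quantile normalization.

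**Figure D4:**
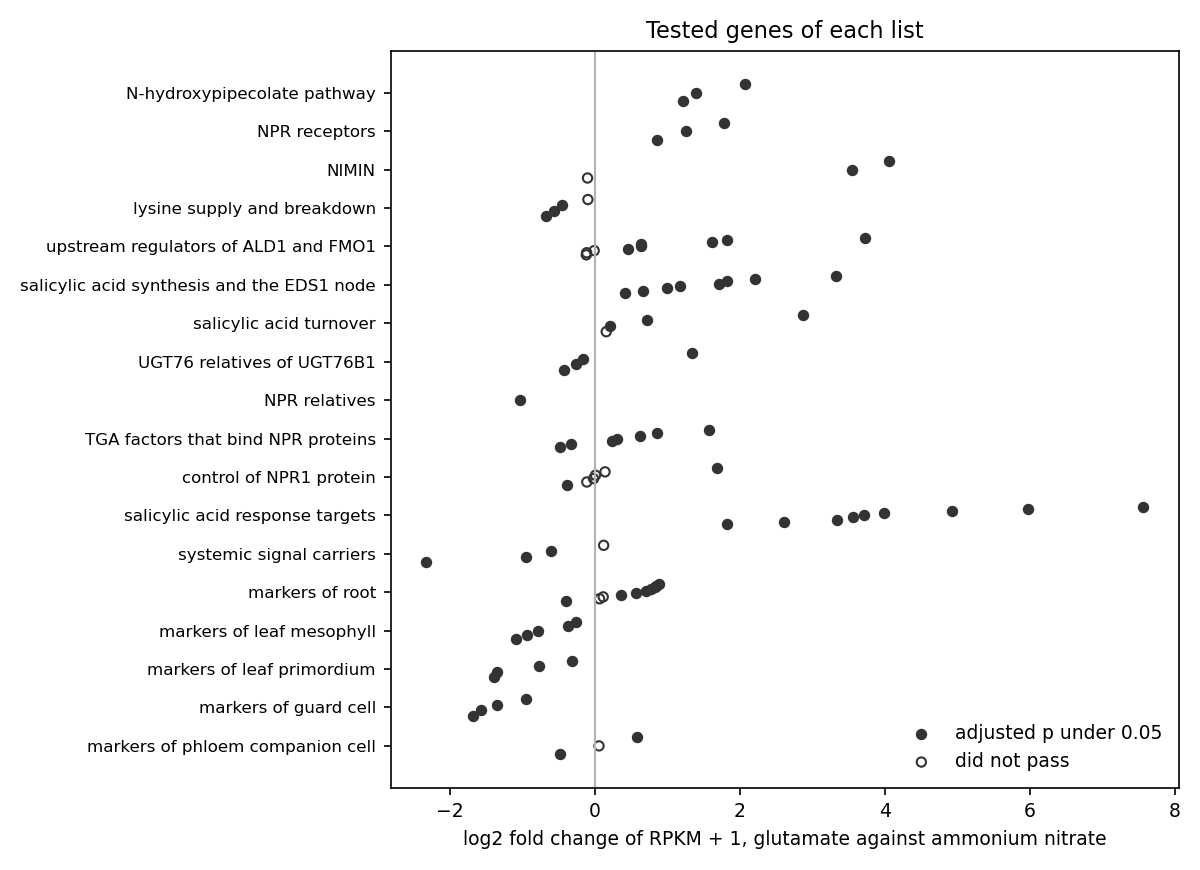
Log2 fold change of RPKM + 1 of each tested gene, glutamate against ammonium nitrate, by list; filled points passed at an adjusted p of 0.05 and open points did not. The salicylic acid response targets lie between 1.83 and 7.57. Below 0 lie the lysine genes, the leaf markers and the guard cell list, which includes markers of guard cell precursors.

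Markers of leaf and root cells also differed between the groups. All 5 leaf mesophyll markers, all 4 leaf primordium markers and all 4 markers of guard cells or their precursors fell, and their summed levels did not overlap. Of all tested genes, 36.8% were called lower and 35.0% higher. Taken singly, 39.2% of them had groups that did not overlap in the lower direction. The summed markers of guard cells or their precursors were at 52.3 to 58.5 RPKM on ammonium nitrate and at 16.8 to 18.8 RPKM on glutamate. The summed leaf primordium markers were at 94.1 to 101 and 48.4 to 50.5 RPKM. Of 10 root markers, 7 rose, 1 fell and 2 did not pass, and their sum was at 96.6 to 126 RPKM on ammonium nitrate and 154 to 171 RPKM on glutamate. Of 3 phloem companion cell markers, SUC2 rose 1.52-fold, AHA3 fell 1.40-fold and APL was at 12.6 ± 0.266 and 13.1 ± 0.238 RPKM. With equal totals per library 4 of the 5 mesophyll markers were called lower, 8 root markers higher and APL higher, and with quantile normalization 3 mesophyll markers were called lower. In whole seedlings a change in the number of cells of a type and a change in RNA per cell cannot be told apart, and the part of these markers in the results was not tested.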

How the data were processed

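Total RNA of whole seedlings was made into libraries with the Illumina TruSeq RNA kit from 1 ug of RNA, per the labels' protocols. Plants had grown for 12 days, at 22 °C by day (16 h light, 8 h dark). All samples had 2 days of cold. The authors deposited 1 table of RPKM values, and the name of the table states TMM scaling. The authors' table also gives each gene's length and, as a fraction per gene, a share of multiply mapped reads, which was 0 for 8 of the 10 genes, 0.00929 for SARD4 and 0.016 for NIMIN3. Per the submitters' processing notes, TAIR10 was the build and SAMtools a tool; aligner, counter and annotation release: not given in the sources used here. RPKM times length takes the steps of whole reads plus 0.5 (within 0.05 read for at least 99.9% of genes without multiply mapped reads), which gave 49520259 to 63424604 reads per library. A count of 0 allows up to 0.0455 to 0.0633 RPKM in a gene of 1 kb, taken as 3 reads and covering counting error only.

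Genes averaging 1 RPKM or more over the 6 libraries entered a two-sided limma test (limma 3.58.1, R 4.3.3), with a mean-variance trend, of log2(RPKM + 1). The code of the fit was run on simulated data in which few genes changed. Most tested genes changed in these data, so that run does not check the calls made here. Ratios were compared with exact permutation tests (scipy 1.17.1). All 10 genes are named, and up to 4 tested genes per list, those with the smallest p. Of 94 list entries in 15 lists, 7 were left out because the reference did not pair identifier and symbol. They were LYSA1, LYSA2, SOX, S3H, NPR2, GSNOR1 and LLP1, so the lists that held them are partial. SARD4 was not paired either and was kept by its identifier. The genes and lists were chosen with earlier results of these data known. Alternatives were other pseudocounts, filters and scalings, the replicate number as a block, a test against a 1.5-fold change, and leaving out each library.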

Additional observations from a re-analysis of the deposited data

How the results depend on the processing

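All 8 calls of higher genes were kept in every fit that tested the gene, with SARD4 not tested once genes with multiply mapped reads were left out. Log2 fold changes ranged from 2.62 to 4.91 for NIMIN1, 3.00 to 3.72 for NIMIN2, 1.37 to 2.38 for FMO1 and 0.73 to 0.96 for NPR1, the extremes in part from the pseudocount. No gene of the 10 was called lower in the main test; 1, NIMIN3, was with quantile normalization, and 0 to 1 when a library was left out. NIMIN3 turned sign with equal totals per library (0.0099). The median of all tested genes was -0.02 as deposited and 0.08 with equal totals per library. Against a 1.5-fold change 2304 genes of all tested were higher and 1799 lower, where 7013 and 7377 were called in the main test; fewer calls follow from the test's larger threshold. The 8 remained called, with 11.5% of tested genes higher. For ALD1, fits without the filter on level, which were combined with the other settings after seeing the data, gave log2 fold changes of 0.88 to 2.10 (adjusted p from 6.43e-05 to 0.0011). The log2 ratios kept their direction with each added value tried, but their size moved with it, and the plain RPKM ratio of FMO1 to ALD1 went the other way, from 11.6 to 10.9 with overlap. No ratio could pass at this number of libraries.

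With the replicate number as a block, 6929 genes were higher and 7265 lower, and 8 of the 10 genes were higher. Deviations of same-numbered libraries correlated at 0.105, 0.048 and -0.013, and of the ammonium nitrate libraries replicate 1 alone correlated best with its own number, so that the numbers were not taken as pairs. Depth limits ALD1 and NIMIN1 on ammonium nitrate, with 11 to 27 and 17 to 33 reads per library.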

Other observations

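Among genes too low to be tested, UGT76E12, a relative of UGT76B1, was at 0.163 ± 0.0499 RPKM on ammonium nitrate and at 1.13 ± 0.145 RPKM on glutamate (SD, n = 3), with no overlap between the groups. UGT76E1 was at 0.0433 ± 0.0427 and 0.212 ± 0.127 RPKM, and BOP1, a relative of the NPR genes with a role in leaf shape, at 0.962 ± 0.166 and 0.674 ± 0.0727 RPKM. Among the 26244 genes with a read in any library, NIMIN2 stood at percentile 47.2 of mean level on ammonium nitrate and 93.8 on glutamate, NIMIN1 at 25.2 and 81.6, and NIMIN3 at 83.2 and 81.5. ALD1 stood at 17.8 and 26.7.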
